A study of Mus musculus with 6 samples.

Results

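Classical cadherins are the transmembrane proteins of adherens junctions, and catenins are the cytoplasmic proteins that tie them to actin. Extracellular domains of cadherins on neighbouring cells bind each other in a calcium-dependent way. Inside the cell beta-catenin, encoded by Ctnnb1, binds the distal cadherin tail and recruits alpha-catenin, encoded by Ctnna1, while p120-catenin, encoded by Ctnnd1, binds the tail near the membrane and keeps the cadherin at the surface. Beta-catenin is also the transcriptional partner of TCF and LEF factors in Wnt signalling. In carcinomas, loss of E-cadherin (Cdh1) with gain of N-cadherin (Cdh2), the cadherin switch, is a textbook sign of epithelial-mesenchymal transition.

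The 8 genes described here are 5 classical cadherins, Cdh1, Cdh2, Cdh3, Cdh5 and Cdh11, and 3 catenins, Ctnna1, Ctnnb1 and Ctnnd1, chosen by name out of 12393 measured genes. They are read by 14 of 20380 probe sets that carry 1 gene symbol. The series holds 6 Affymetrix arrays of mouse RNA, 3 from 344SQ cells with a control vector and 3 from 344SQ cells in which miR-34a was inducibly expressed. 344SQ is a metastatic mouse lung cancer line with high Zeb1, and all 6 samples come from this 1 line. The titles of the miR-34a samples and the design text speak of tumours in mice, while other labels describe cultured cells. The labels used here name no host strain, age, inducing agent or pooling. Whether the 3 samples of a group are separate animals or dishes is not stated, and the spread behind each p-value may therefore be technical.

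The agent that separates the groups is the microRNA miR-34a. Its mature strand is shown with its seed, bases 2 to 8, in capitals, since the seed is the part through which a microRNA pairs with messenger RNAs. In the RefSeq table of mouse microRNAs (GRCm38.p6) the mature strand lies at chr4:150068473-150068494 on the plus strand. At least 4 of 1679 mature names, including miR-34a-5p itself, carry this seed. The search for the seed did not cover every chromosome and rested only on the mature strands in this table. The names shown may therefore not be all that share the seed.
mmu-miR-34a-5p: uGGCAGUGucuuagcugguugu
mmu-miR-34b-5p: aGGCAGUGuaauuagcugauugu
mmu-miR-449a-5p: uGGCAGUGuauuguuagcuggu
mmu-miR-449c-5p: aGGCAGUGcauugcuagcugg
The other 3 sequences differ from miR-34a-5p outside the seed, and all 4 have the same 7 bases in capitals. Mature miR-34a itself was not measured on these arrays.

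The values are intensities on a linear scale, and the array medians ran from 466.7 to 484.2. Changes are differences of log2(intensity + 16), miR-34a minus vector, tested with limma and adjusted over all genes. A gene is represented by its brightest probe set, and a change passes at an adjusted p under 0.05. Vector 1 stood apart: its score on the leading principal component (61.0% of variance) was -43.33, where the other 5 arrays scored -8.75 to 21.66. Values that move with this array are also given without it for Cdh2, Cdh11, Cdh5, the fibroblast and macrophage markers and the genes closest to Cdh2. Of all genes 1456 passed (11.7%), 805 higher (6.5% of all, 55.3% of those that passed) and 651 lower (5.25%), against 31.3% higher with arrays centred on their medians and 43.1% with quantile normalization. Without vector 1, 2 or 3, 17.2%, 10.1% and 5.09% of all genes passed. Without miR-34a 1, 2 or 3, 2.06%, 5.38% and 1.82% passed. Calls kept, lost or gained in fits that left out 1 array are to be read beside these shares.

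Epithelial and mesenchymal filament genes were bright on all arrays, and which cells their RNA came from was not tested. The keratin gene Krt8 ran from 19705 to 22834, Krt18 from 21668 to 24926 and the vimentin gene Vim from 18567 to 21643. None of these 3 genes passed (limma adjusted p = 0.524 for Vim). The epithelial adhesion gene Epcam was at 304.8 on vector 1 and between 950.7 and 1463 on the other arrays, and its change was 0.42 ± 0.50 (SE; limma adjusted p = 0.638), or -0.21 without vector 1.

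**Figure D1:**
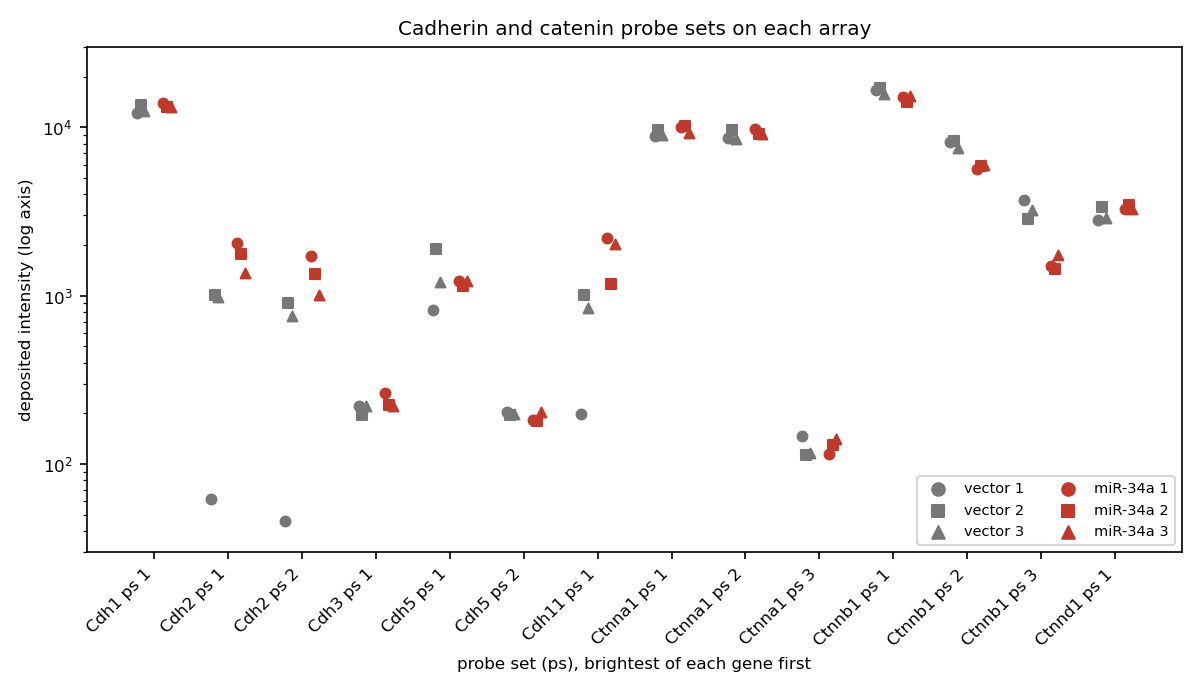
Deposited intensity (log axis) of the 14 probe sets of the cadherin and catenin genes on each of the 6 arrays; vector arrays are grey, miR-34a arrays red, and the marker shape is the replicate number. Vector 1 lies far below the other arrays for both Cdh2 probe sets and for Cdh11, and the 3 Ctnnb1 probe sets lie lower on the miR-34a arrays.

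With the brightest probe set of each gene, 0 of the 8 genes passed the limma test over all genes, against 11.7% of all genes (6.5% higher, 5.25% lower). At an unadjusted p under 0.05 there was 1, Cdh11. The median change of the 8 genes was 0.11, against 0.02 over all genes, and 6 of 8 changes were above 0. The groups did not overlap in 3 of 8 genes, Cdh2, Cdh11 and Ctnnb1, against 34.9% of all genes. Single alternatives changed this count: 2 genes passed without vector 1, Cdh2 and Cdh11 (17.2% of all genes passed in that fit, 10.1% as higher). With array weights 1 passed, Cdh11 (26.1% of all genes), and with the mean of all probe sets 1 passed, Ctnnb1 (11.9% of all genes).

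Cdh1, the gene of E-cadherin that holds epithelial cells together, was bright and nearly flat. Its single probe set read 12237, 13563 and 12418 on vector 1, 2 and 3 and 13878, 13142 and 13266 on miR-34a 1, 2 and 3. The highest array was 1.13-fold above the lowest, and vector 2 lay inside the range of the miR-34a arrays. In log2 units the means were 13.64 ± 0.080 in vector and 13.71 ± 0.042 in miR-34a samples (SD, n = 3). The change was 0.08 ± 0.080 (SE) and did not pass (limma adjusted p = 0.584). The 95% interval of the change ran from -0.11 to 0.27. The sign was above 0 in each fit that left out 1 array and turned with arrays centred on their medians (-0.018).

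Cdh3, the gene of P-cadherin, which basal epithelial cells carry, neighbours Cdh1 in the RefSeq gene table. It read 222.0, 196.1 and 220.3 on the vector arrays and 264.4, 224.5 and 220.8 on the miR-34a arrays. The groups overlapped, with vector 1 above miR-34a 3. Its change was 0.14 ± 0.099 (SE; limma adjusted p = 0.412), with an interval of -0.09 to 0.37. No detection calls were used, so it cannot be said whether this dim probe set lay above background. The skin keratinocyte markers, which would come with basal epithelium, had 0 of 10 measured genes past the threshold (0 at an unadjusted p under 0.05), and their summed intensity was 4191 to 6163 in vector and 3978 to 4468 in miR-34a arrays.

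Cdh2, the gene of N-cadherin, was the member with the largest spread. Its brighter probe set read 62.0 on vector 1, 1010 and 976.5 on vector 2 and 3, and 2054, 1773 and 1356 on miR-34a 1, 2 and 3. The second probe set read 45.8, 902.3 and 755.7 on the vector arrays and 1718, 1346 and 1009 on the miR-34a arrays. Both probe sets therefore placed vector 1 far below the rest, and both placed each miR-34a array above each vector array. Of all probe sets, 35.5% had groups that did not overlap, in either direction. The highest array was 33.1-fold above the lowest on the brighter probe set and 37.5-fold on the second.

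The change of Cdh2 over all arrays was 2.00 ± 0.93 in log2 units (SE; limma adjusted p = 0.216), from 8.75 ± 2.13 in vector to 10.75 ± 0.301 in miR-34a samples (SD, n = 3). Its interval of -0.20 to 4.2 holds no change as well as large ones. Without vector 1 the change was 0.77 ± 0.16 and passed (limma adjusted p = 0.0167), a 1.70-fold difference, while in the 5 fits that left out another array it ran from 1.87 to 2.63 and did not pass. The second Cdh2 probe set had a difference of 1.93 over all arrays (limma adjusted p = 0.227 over probe sets) and by 0.67 without vector 1 (adjusted p = 0.0542). The lowest miR-34a array was 1.34-fold above the highest vector array on the brighter probe set and 1.12-fold on the second.

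Cdh11, the gene of cadherin-11, a type II cadherin of mesenchymal cells and fibroblasts, had the same low array. It read 197.0 on vector 1, 1012 and 849.9 on vector 2 and 3, and 2190, 1170 and 2014 on miR-34a 1, 2 and 3. The groups did not overlap, and miR-34a 2 lay closest to the vector arrays. The change was 1.60 ± 0.58 (SE; limma adjusted p = 0.125), with an unadjusted interval of 0.23 to 2.98. Without vector 1 it was 0.89 ± 0.24 and passed (limma adjusted p = 0.0434), and with array weights it was 1.2 and passed (adjusted p = 0.0306). In the fits that left out another array it ran from 1.43 to 2.02 and did not pass.

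Markers of fibroblasts shared the low vector 1 with Cdh2 and Cdh11. The summed intensity of the 20 measured fibroblast markers was 42158 on vector 1, 95272 and 79734 on vector 2 and 3, and 92453 to 118284 on the miR-34a arrays. Within the miR-34a group this sum was lowest on miR-34a 2, as Cdh11 was, while Cdh2 was lowest on miR-34a 3. The sum on miR-34a 2 also lay below that on vector 2, whereas the groups did not overlap for Cdh2 and Cdh11. None of these markers was at the lowest value of the table. In the comparison of groups 19 of 20 were above 0 with a median of 0.71, and 4 passed as higher (20% against 11.7% of all genes). These were Thy1, which encodes a cell surface glycoprotein, with a rise of 1.73, Pcolce, whose product aids procollagen cleavage, with 0.81, and the collagen VI chains Col6a2 and Col6a1 with 0.78 and 0.70. Without vector 1 the median was 0.28, 16 of 20 were above 0 and 4 passed as higher, with Thy1 at 1.27. Of all genes 10.1% passed as higher in that fit. Leaving out vector 3 kept 2 higher markers, leaving out miR-34a 1 kept 1, and leaving out miR-34a 3 kept 0. In these fits 2.53%, 0.976% and 0.791% of all genes passed as higher. In bulk RNA, fewer cells of a type and less RNA per cell cannot be told apart, and the part of host fibroblasts in the Cdh2 and Cdh11 values was not tested. Macrophage markers had a summed intensity of 21484 on vector 1, 30832 and 29921 on vector 2 and 3 and 31803 to 36721 on the miR-34a arrays, with 3 of 14 higher and 1 lower, the mannose receptor gene Mrc1 at -0.99. Leaving out vector 3 or any single miR-34a array left 0 higher macrophage markers, and leaving out vector 1 gave 5. Of all genes 0.791% to 2.53% passed as higher in the fits that left 0, and 10.1% in the fit that gave 5. The call of Mrc1 was kept in 6 of 6 fits that left out 1 array. The median of the macrophage list was 0.51, or 0.28 without vector 1. Nerve and Schwann cell markers, from tissue that also carries Cdh2, had a summed intensity of 5774 to 6480 in vector and 5656 to 6204 in miR-34a arrays, with 1 of 8 higher, the myelin gene Pmp22 at 0.55. This call was lost when vector 3, miR-34a 1 or miR-34a 3 was left out. The median of the nerve list was 0.01, with 4 of 8 changes above 0, or -0.00099 without vector 1. Ncam1, of the same list, had a change of -0.53 and did not pass (limma adjusted p = 0.0844). Without vector 1, 2 nerve markers passed as higher and 0 as lower, where 10.1% of all genes passed as higher.

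**Figure D2:**
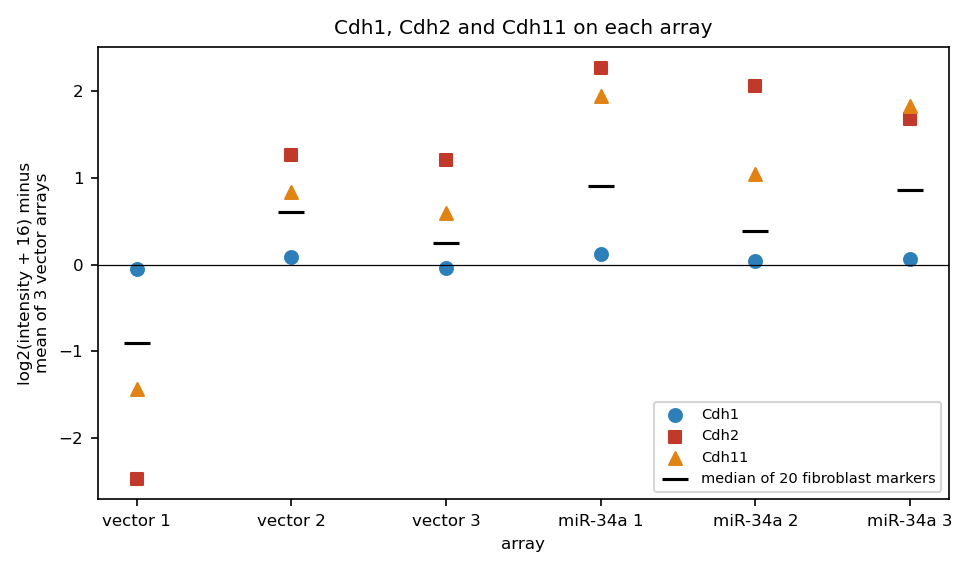
Difference of log2(intensity + 16) from the mean of the 3 vector arrays for Cdh1, Cdh2 and Cdh11 on each array, with the median of the same difference over 20 fibroblast markers as a black bar. Cdh1 stays between -0.06 and 0.12, while Cdh2 runs from -2.46 on vector 1 to 2.27 on miR-34a 1, with Cdh11 and the fibroblast median low on vector 1 as well.

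The cadherin switch was read array by array. Relative to the vector mean, Cdh1 stood at -0.06, 0.09 and -0.04 on vector 1, 2 and 3 and at 0.12, 0.05 and 0.06 on miR-34a 1, 2 and 3. Cdh2 stood at -2.46, 1.26 and 1.21 on the vector arrays and at 2.27, 2.06 and 1.67 on the miR-34a arrays. Cdh11 stood at -1.43, 0.84 and 0.59 and at 1.94, 1.05 and 1.82. The difference of Cdh1 minus Cdh2 on this scale was 2.41 on vector 1, -1.16 and -1.24 on vector 2 and 3, and -2.14, -2.01 and -1.61 on the miR-34a arrays. Vector 1 was thus the one array with a difference above 0, and the miR-34a arrays had the lowest values. The group difference, the change of Cdh1 minus that of Cdh2, was -1.92 over all arrays and -0.72 without vector 1, and it is given with no test. It shows unequal changes of the 2 probe sets and does not give the ratio of the proteins or of the transcripts.

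The genes whose profiles lay closest to Cdh2, each centred on its own mean over the 6 arrays, were Irgm2, Sftpb and Igtp, at root mean square distances of 0.17, 0.23 and 0.26 in log2 units. Irgm2 and Igtp encode interferon-inducible GTPases, and Sftpb encodes surfactant protein B of lung alveoli. Irgm2 read 195.2 on vector 1, 2025 and 2355 on vector 2 and 3 and 3518 to 5167 on the miR-34a arrays. Sftpb read 529.2 on vector 1, 9137 and 10646 on vector 2 and 3 and 12684 to 15106 on the miR-34a arrays. Igtp read 256.6 on vector 1 and 5229 to 10490 on the other arrays. Each of these 3 genes had its lowest value by far on vector 1, as Cdh2 did, and none passed over all arrays, with limma adjusted p-values of 0.183, 0.302 and 0.293. Over all arrays Irgm2, Sftpb and Igtp had differences of 2.00, 1.85 and 1.98 between the groups. Without vector 1 these were 0.87, 0.46 and 0.53, and Irgm2 (limma adjusted p = 0.0143) and Sftpb (adjusted p = 0.0323) passed while Igtp (adjusted p = 0.0795) did not. The profiles closest to that of Cdh1 were the pseudogenes Mcpt-ps1 and C4bp-ps1 and the tropomyosin gene Tpm3, at distances of 0.018, 0.025 and 0.020, and these too were nearly flat.

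Cdh5, the gene of VE-cadherin, the classical cadherin of endothelial junctions, varied mostly within the vector group. Its brighter probe set read 822.1, 1893 and 1209 on vector 1, 2 and 3 and 1227, 1136 and 1220 on the miR-34a arrays. All miR-34a values lay between the lowest and the highest vector value. The change was -0.05 ± 0.27 (SE; limma adjusted p = 0.932), with an interval of -0.68 to 0.58, and it was 0.26 without vector 2 and -0.34 without vector 1. The second probe set, at 180.2 to 204.4 over the 6 arrays, had a difference of -0.08 ± 0.082. The summed intensity of the endothelial markers had a like order. It was 8691, 13002 and 10781 on vector 1, 2 and 3 and 11724 to 11976 on the miR-34a arrays. Bright genes weigh most in this sum. The median difference of the list from the vector mean was only -0.07, 0.08 and 0.01 on vector 1, 2 and 3. On the miR-34a arrays it was -0.03 to 0.07, and some of these markers were highest on vector 1. Of the 18 measured, 0 passed (2 at an unadjusted p under 0.05), and the median change was 0.05 (-0.02 without vector 1). The endothelial adhesion gene Pecam1 had a difference of -0.28 ± 0.14 (-0.39 without vector 1). The VE-cadherin-associated phosphatase gene Ptprb, at 709.2 on vector 1, had one of 0.64 ± 0.29 (0.28 without vector 1). None of these markers was at the lowest value of the table.

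Among the catenins, Ctnna1 and Ctnnd1 were close to flat. Ctnna1, the alpha-catenin gene, read 8925, 9700 and 9037 on the vector arrays and 9976, 10173 and 9229 on the miR-34a arrays. The groups overlapped through vector 2. Its change was 0.09 ± 0.082 (SE; limma adjusted p = 0.543), with an interval of -0.11 to 0.28, and turned to -0.0089 with arrays centred on their medians. A second probe set, at 8530 to 9805, had a difference of 0.07 and another, dim one, 112.6 to 146.7, by 0.04. Ctnnd1, the p120-catenin gene, read 2807, 3364 and 2890 on the vector arrays and 3257, 3463 and 3251 on the miR-34a arrays. Its change was 0.14 ± 0.095 (SE; limma adjusted p = 0.384), with an interval of -0.08 to 0.36, and vector 2 lay inside the miR-34a range.

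Ctnnb1, the beta-catenin gene, was the member whose probe sets differed most. All 3 of its probe sets were lower on each miR-34a array than on any vector array, by amounts that differed between them. The groups did not overlap, in either direction, in 35.5% of all probe sets, and the 3 Ctnnb1 probe sets were read on the same arrays. The brightest read 16600, 17217 and 15816 on the vector arrays and 15180, 14154 and 15283 on the miR-34a arrays. The second read 8220, 8303 and 7503 against 5671, 5925 and 5991. The third read 3708, 2845 and 3217 against 1497, 1439 and 1748. The gap between the lowest vector and the highest miR-34a array was 1.03-fold on the brightest, 1.25-fold on the second and 1.63-fold on the third.

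In limma terms the brightest Ctnnb1 probe set, which stands for the gene, had a difference of -0.15 ± 0.079 (SE; adjusted p = 0.257) and did not pass. In the fit over all probe sets, the second fell by 0.45 ± 0.082 (adjusted p = 0.0155), a 1.36-fold difference. The third fell by 1.05 ± 0.13 (adjusted p = 0.00451), from 11.67 ± 0.190 to 10.62 ± 0.147 (SD, n = 3), a 2.07-fold difference. These were 2 of the 14 cadherin and catenin probe sets to pass, both lower, where 13.7% of all probe sets passed and 7.18% passed as lower. The call of the third was kept in 6 of 6 fits that left out 1 array, with changes of -1.14 to -0.95. The call of the second was lost without miR-34a 1 (adjusted p = 0.0748) and without miR-34a 3 (adjusted p = 0.0685), where its changes were -0.42 and -0.46. Of all probe sets, 18%, 13.8% and 6.81% passed without vector 1, 2 or 3. Without miR-34a 1, 2 or 3, 3.27%, 7.37% and 3.36% of them passed. With the mean of its 3 probe sets, Ctnnb1 fell by 0.55 ± 0.078 (limma adjusted p = 0.00903).

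The 3 Ctnnb1 probe sets can be compared within each array. Relative to the brightest probe set and to the vector mean, the third stood at 0.19, -0.24 and 0.055 on the vector arrays and at -0.98, -0.94 and -0.77 on the miR-34a arrays. The second stood at 0.03, -0.005 and -0.03 on the vector arrays and at -0.37, -0.21 and -0.30 on the miR-34a arrays. In both cases the groups did not overlap, with a difference of -0.90 for the third and -0.29 for the second (no test is given, since the probe sets were compared after their separation was seen). The range of changes over the probe sets of Ctnnb1 was 0.90. Among 1191 genes with 3 probe sets the median range was 0.32, and 83 (7.0%) had a range at least as wide. These comparisons within arrays, and the probe set fits that left out 1 array, were chosen after seeing the data. Which part or form of the transcript each probe set reads was not analysed here.

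**Figure D3:**
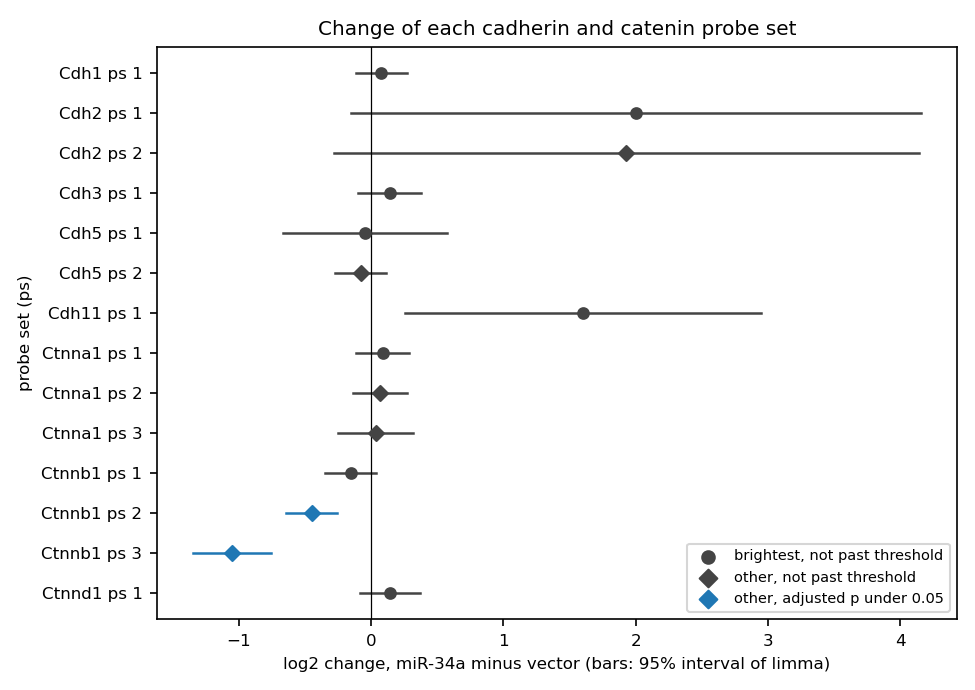
Log2 change, miR-34a minus vector, of each of the 14 probe sets with its 95% interval from the limma fit over all probe sets; circles are the brightest probe set of a gene and diamonds its others, numbered from bright to dim. Of the Ctnnb1 probe sets ps 2 and ps 3 are past the threshold, at -0.45 and -1.05, and the intervals of Cdh2 and Cdh11 are the widest.

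**Figure D4:**
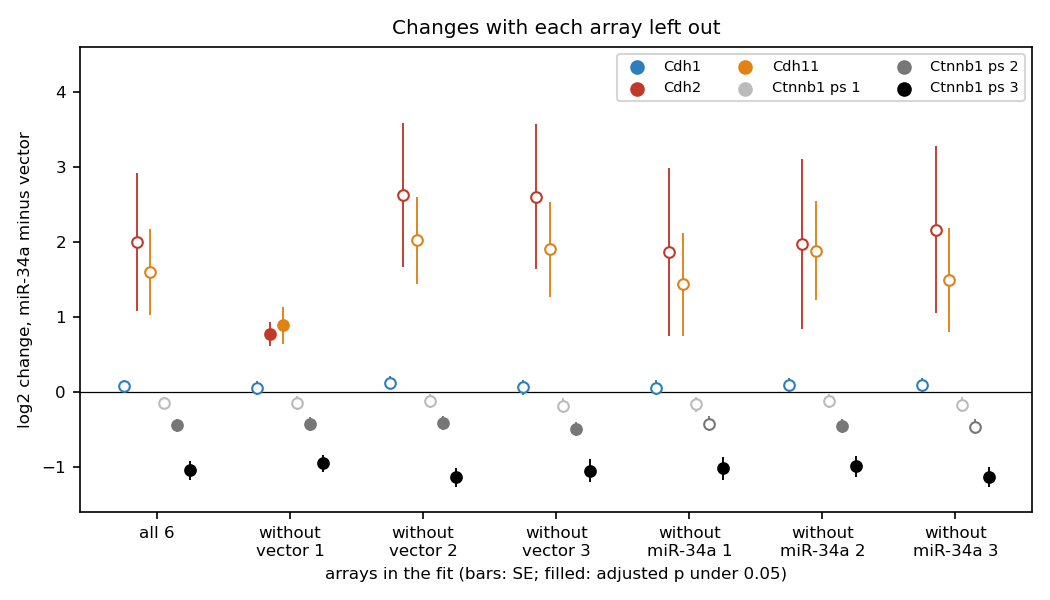
Log2 change with its SE for Cdh1, the brighter Cdh2 probe set, Cdh11 and the 3 Ctnnb1 probe sets, with all 6 arrays and with each array left out, in fits over all probe sets; filled points have an adjusted p under 0.05. Cdh2 and Cdh11 drop to 0.77 and 0.89 and pass without vector 1, while the third Ctnnb1 probe set passes in all 7 fits and lies between -1.14 and -0.95.

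The wider junction genes were read from lists chosen by function, whose counts stand beside 11.7% of all genes passing and a median change of 0.02. Of 22 measured junction partners of the complex, 2 passed as higher and 1 as lower (13.6%), with a median of 0.09. Nectin2, a nectin that forms junctions beside the cadherins, rose by 0.53 ± 0.11, from 1421 to 1785 on the vector arrays to 2317 to 2458 on the miR-34a arrays. Its other probe set had a difference of 0.46 and did not pass (limma adjusted p = 0.134 over probe sets). Ssx2ip, an afadin-binding protein gene, rose by 0.71, while its 3 other probe sets ran from -0.14 to 0.28. Tjp1, the gene of the scaffold ZO-1, fell by 0.44 ± 0.10 (SE; limma adjusted p = 0.0351). The LIM protein gene Ajuba had a change of 0.61 (adjusted p = 0.0616). Jup, the gene of plakoglobin, which takes the place of beta-catenin on cadherin tails, had one of 0.42 ± 0.12 (adjusted p = 0.0724). Jup read 1290, 1676 and 1325 on the vector arrays and 2018, 1974 and 1737 on the miR-34a arrays, so its groups did not overlap, and it passed without vector 2. Dimmer probe sets of 2 other partners passed as lower in the fit over all probe sets, where 7.18% did. That of Vcl was at -0.85 (limma adjusted p = 0.00549), while its brightest was at 0.14. One of Nectin3 was at -0.60 (adjusted p = 0.0421), and its brightest was at -0.36 and did not pass. The calls of Nectin2 and Ssx2ip were kept in 2 of 6 fits that left out 1 array and that of Tjp1 in 1. The partners past the threshold numbered 5 without vector 1, where 17.2% of all genes passed. They numbered 0 when vector 3 or any single miR-34a array was left out, where 1.82% to 5.38% of all genes passed. These counts thus rose and fell with those of all genes.

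Of 26 other measured genes of the cadherin superfamily, 1 passed as higher and 1 as lower (7.69%), with a median of 0.03. Cdh17, the gene of LI-cadherin of intestinal and liver epithelium, fell by 0.62 ± 0.12 (SE; limma adjusted p = 0.0236), from 5406 to 6722 on the vector arrays to 3649 to 4557 on the miR-34a arrays. Cdh13, the gene of the GPI-anchored T-cadherin, rose by 1.06 ± 0.24 (adjusted p = 0.0341), and its 2 other probe sets had differences of 0.09 and 0.22. The calls were kept in 1 and 2 of the 6 fits that left out 1 array. Cdh4, the gene of R-cadherin, had a change of 0.28 and the protocadherin gene Pcdh7 one of 0.21, and neither passed.

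Transcription factors that act on the Cdh1 promoter were measured as well. Of 15 repressor and corepressor genes 2 passed as higher and 1 as lower (20%), with a median of 0.16. The helix-loop-helix factor gene Twist1 read 63.8, 172.5 and 174.9 on the vector arrays and 425.2, 368.7 and 421.9 on the miR-34a arrays, a rise of 1.56 ± 0.32 (SE; limma adjusted p = 0.0264). Twist2 rose by 1.49 ± 0.34 (adjusted p = 0.0364), from 150.6, 403.0 and 302.9 to 1035, 629.6 and 704.7. Both were lowest on vector 1, as Cdh2 and Cdh11 were, and without it they rose by 1.15 and 1.11 and passed. Leaving out any single miR-34a array ended both calls, and leaving out vector 3 ended that of Twist2. The histone deacetylase gene Hdac2 fell by 0.78 ± 0.13 (adjusted p = 0.0165), a call lost without vector 3, miR-34a 1 or miR-34a 3. Zeb1 had a difference of 0.03 ± 0.098 (adjusted p = 0.896), with a sign that turned under both scaling alternatives, Zeb2 by 0.73 ± 0.33, Snai1 by 0.34 ± 0.11 and Snai2 by -0.01 ± 0.30, and none of these 4 passed. Without vector 1, Zeb1 had a difference of -0.06, Zeb2 by 0.32 and Snai2 by -0.39, the last with an adjusted p of 0.0446. Of 12 activators of epithelial genes 0 passed (3 at an unadjusted p under 0.05), with a median of -0.02 (0.04 without vector 1); Foxa2 had a change of 0.45 and Ovol1 one of -0.42. Single genes passed in fits that left out 1 array: Foxa2 at 0.32 and Elf3 at -0.53 without vector 1, Ovol1 at -0.53 without vector 2 and Foxa1 at -0.55 without miR-34a 2. The second Ovol1 probe set had a difference of 0.14 over all arrays.

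Of 19 measured epithelial markers 4 passed as higher and 0 as lower (21.1%), with a median of 0.01 (0.08 without vector 1). They were the tight junction genes Ocln at 1.98 ± 0.14 and Marveld2 at 0.49 ± 0.12, the protease inhibitor gene Spint1 at 1.37 ± 0.16 and the membrane traffic gene Mal2 at 1.57 ± 0.23 (SE). The calls of Ocln and Spint1 were kept in 6 of 6 fits that left out 1 array, that of Mal2 in 4 and that of Marveld2 in 0. The other 15 markers did not pass. Cdh1 itself was not on this list.

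Of 30 genes of cadherin kinases, phosphatases, cleavage and turnover, 4 passed as higher and 2 as lower (20%), with a median of 0.16. The higher ones were phosphatases: the receptor phosphatase genes Ptprf at 0.62 ± 0.085, Ptprk at 0.45 ± 0.097 and Ptprj at 0.45 ± 0.11, and Ptpn1, the gene of PTP1B, at 0.62 ± 0.14 (SE). Ptprf read 2706 to 2981 on the vector arrays and 4070 to 4566 on the miR-34a arrays, and its other probe sets had differences of 0.41 and 0.46. The 2 other Ptprk probe sets had differences of -0.29 and 0.32, the 3 others of Ptprj ran from 0.04 to 0.29, and that of Ptpn1 was at 0.17. The lower ones were the Src-family kinase gene Yes1 at -0.59 ± 0.14, with a second probe set at -1.32, and the small GTPase gene Rap1a at -0.40 ± 0.086. The second Rap1a probe set was at -0.11. The call of Ptprf was kept in 5 of 6 fits that left out 1 array, that of Ptpn1 in 2 and those of the other 4 in 1.

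Around beta-catenin, 3 of 15 genes of the destruction complex and its nuclear partners passed as higher and 1 as lower (26.7%), with a median of 0.16. The kinase gene Gsk3b, whose product marks beta-catenin for degradation, rose by 0.59 ± 0.11 (SE; limma adjusted p = 0.0186), from 475.6, 551.1 and 485.2 to 772.3, 848.0 and 684.4. The beta-catenin inhibitor gene Cby1 rose by 0.33 and the coactivator gene Bcl9l by 0.49, while the priming kinase gene Csnk1a1 fell by 0.34, with other probe sets at -0.19 and -0.17. The calls of Gsk3b and Bcl9l were kept in 2 of 6 fits that left out 1 array and those of Cby1 and Csnk1a1 in 1. Of 12 measured beta-catenin target genes 0 passed (3 at an unadjusted p under 0.05; 1 with array weights), with a median of 0.03 and changes from -0.16 to 0.41. The feedback inhibitor gene Axin2 read 670.1, 729.3 and 674.6 on the vector arrays and 793.3, 821.2 and 871.5 on the miR-34a arrays, a change of 0.26 ± 0.081 (SE; limma adjusted p = 0.0877) whose groups did not overlap. Nkd1, another feedback inhibitor gene, had a change of -0.15, Notum, the gene of a secreted Wnt deacylase, one of 0.24, and the receptor gene Tnfrsf19 one of 0.37, with other probe sets at -0.10 and 1.54.

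**Figure D5:**
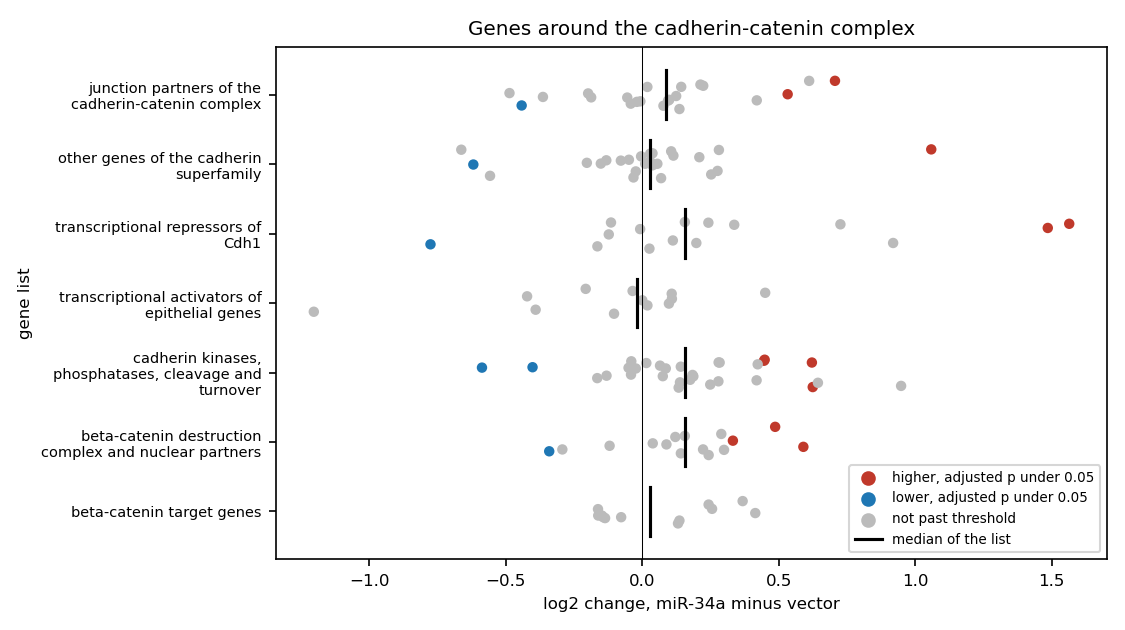
Log2 change, miR-34a minus vector, of the genes in 7 lists around the cadherin-catenin complex; each point is a gene, red and blue points passed as higher and lower, and black bars are list medians. The medians lie between -0.02 and 0.16, and Twist1 and Twist2, at 1.56 and 1.49, are the points farthest to the right.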

How the data were processed

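Biotinylated cRNA from total RNA was read on Affymetrix arrays, per the labels' protocols. The intensity values are those the authors deposited, on a linear scale with a lowest value of 1; how they were summarised and scaled is not given in the sources used here, and no detection calls were used. Sample titles gave the group and the replicate number. Of 22690 probe sets, 20393 had 1 gene symbol, 691 several and 1606 none in the platform annotation; symbols were updated through Entrez identifiers (20364 matched, 29 kept), and 64 control probe sets were left out. The probe set with the highest mean log2 value stood for each of 12393 genes. Tests used log2(intensity + 16), so changes of dim genes are understated, with limma 3.58.1 in R 4.3.3, two-sided, 3 against 3 arrays with no block, Benjamini-Hochberg adjusted over all genes at 0.05; other probe sets come from the same fit over all 20380. The fit was tested on simulated data. The genes, lists and tests were chosen with earlier results of these data known. Named genes are the 8 members, up to 4 genes per list with the smallest unadjusted p, a set list (Jup, Zeb1, Zeb2, Snai1, Snai2, Twist1, Twist2, Pecam1, Epcam, Vim) and the 3 profiles closest to Cdh1 and to Cdh2. Krt8, Krt18, Ptprj, Yes1, Vcl and Nectin3 were named after their values were seen. The keratinocyte, skeletal muscle and pericyte lists were read as markers of other cells. MicroRNA sequences are from RefSeq (GRCm38.p6). Alternatives were other normalization, filter, pseudocounts, probe set rule, variance model, array weights, replicate block, thresholds and leaving out each array. Figures were drawn with matplotlib 3.10.9.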

Additional observations from a re-analysis of the deposited data

How the results depend on the processing

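The 0 cadherin and catenin genes past the threshold became 1 with the mean of all probe sets (Ctnnb1), 1 with array weights (Cdh11) and 2 without vector 1 (Cdh2 and Cdh11), and ran from 0 to 2 over the fits that left out 1 array. The count over all genes, 1456, was 3238 with array weights, 522 with the replicate block, 248 at an adjusted p under 0.01 and 2422 at 0.10, and ran from 226 to 2133 over the fits that left out 1 array. These fits have fewer arrays, and the cause of the other shifts was not tested. The titles give replicate numbers and do not say whether same-numbered samples are paired. Same-numbered arrays' deviations from their group means correlated across genes at -0.17, -0.09 and -0.08, and those of the other pairs at -0.05 to 0.14. Deviations within a group cancel out, so these values depend on each other and cannot settle whether samples are paired. With the replicate block 0 of the 8 genes passed, and the second Ctnnb1 probe set had an adjusted p of 0.0569. Of the 8 genes' changes, 3 turned in sign, none of them past the threshold: Cdh1 at -0.018 and Ctnna1 at -0.0089 with arrays centred on their medians, and Cdh5 at 0.26 without vector 2 (-0.34 without vector 1). The change of Cdh1 minus that of Cdh2, -1.92, ran from -2.54 to -0.72 over the fits that left out 1 array. It kept its sign under each alternative run. The number of arrays, 3 per group, and the missing detection calls limit dim probe sets such as Cdh3.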

Other observations

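Skeletal muscle markers, from tissue whose precursors carry Cdh2 and Cdh15, had 0 of 14 genes past the threshold (3 at an unadjusted p under 0.05). Without vector 1, 0 passed as well. Without miR-34a 2, the array of its group where this list was lowest, 5 passed as higher, against 2.44% of all genes. Leaving out the lowest array of a group raises the mean of that group. That count therefore cannot be read as a result about the list. All 14 changes were above 0, with a median of 0.33. Their summed intensity was 2626 to 3348 on the vector arrays, 5377 and 8011 on miR-34a 1 and 3, and 2758 on miR-34a 2. The M-cadherin gene Cdh15 of muscle precursors had a difference of -0.03 ± 0.097 and read 419.0 to 502.3 over the 6 arrays. Of 11 pericyte and smooth muscle markers 1 passed, as lower, the channel subunit gene Abcc9 at -0.86. Leaving out miR-34a 1 or miR-34a 3 ended that call. When miR-34a 2 was left out, 2 others, Myl9 and Des, passed as higher, against 2.44% of all genes. That array was also the lowest of its group for both genes, so the same limit holds. Without vector 1, 0 pericyte and smooth muscle markers passed as higher. Cdh16, the kidney cadherin gene, read 1240 on vector 1 and 355.4 to 535.0 on the other arrays, so that vector 1 was its highest array while it was the lowest for Cdh2 and Cdh11. Vector 1 was also the highest array for the epithelial scaffold gene Tjp3, at 900.1 against 129.6 to 215.2 elsewhere. The same held for Elf3, at 4180 against 621.0 to 1137, while the other arrays ranked differently in the 3 genes. Cdh15, Cdh16 and Tjp3 were named here after their values were seen.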
